A study of Sus scrofa with 3 samples.

Results

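Regions of the pig liver genome were examined in which one breed carried methylation on nearly all reads of its CG sites and another breed on an intermediate share. Regions were chosen by the deposited levels of both compared breeds together with position and size. A region was included when it lay on chromosomes 1 to 18, was shorter than 1000 bp, held fewer than 10 CG sites per 100 bp, and had a level of 35 to 65% in the lower breed and of at least 90% in the higher breed. Below, the lower breed of such a region is called half-methylated and the higher breed fully methylated, as names for these ranges only. Of 25044 regions listed in the 3 deposited breed comparisons, 20588 lay on chromosomes 1 to 18 and 4851 met all limits.

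Liver DNA came from male pigs at postnatal day 90 of the Enshi black pig (a Chinese domestic breed), the Large White pig (a European domestic breed) and the Chinese wild boar. It was converted with bisulfite, which leaves methylated cytosine intact, amplified and sequenced, giving 1 methylome per breed. The submitters name 3 male pigs, and whether they are 1 pig per breed or a pool for each breed is not stated there. With 1 methylome per breed there was no replicate, no difference between breeds could be set against a spread between animals, and no test was made.

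In vertebrate genomes a methyl group on cytosine of a CG pair is copied to the new strand after each cell division, and most CG pairs outside CG islands and active enhancers carry it on both alleles. A mean level near the middle of the scale is what a locus gives when one allele is methylated and the other is not, as at imprinted genes or where a sequence variant sets the methylation of its own allele. The same mean arises when some cells of the tissue, or some animals of a pool, carry the mark and others do not. Region means in whole liver cannot tell these apart, and the levels below are therefore given as levels and not as alleles.

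Enshi black pig and Large White pig differed at 8881 listed regions, 7325 of them on chromosomes 1 to 18, and 1777 of these (24.3%) met the limits. Enshi black pig and Chinese wild boar had 9365 listed regions, with 7829 on these chromosomes, and 1803 (23.0%) met the limits. For Large White pig set against wild boar 6798 regions were listed, 5434 lay on these chromosomes, and 1271 (23.4%) met the limits. The pattern thus took a like share of each comparison. These shares follow from the limits and describe the lists only. The 3 comparisons share breeds, so their regions are not independent sets.

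The level of the half-methylated breed had a median of 54.8% between Enshi black and Large White pigs, with quartiles of 47.4 and 60.3%. The median was 54.2% for Enshi black pig against wild boar and 54.0% for Large White pig against wild boar. The fully methylated breed stood at a median of 95.4%, 95.6% and 96.0% in the same order. The gap between both breeds had a median of 40.6, 41.5 and 42.0 percentage points, and over all 4851 regions it ran from 25.1 to 64.2 points. By breed, the half-methylated level had a median of 55.3% where Enshi black pig and 53.9% where Large White pig was the lower, 54.8% and 53.5% for Enshi black pig and wild boar, and 54.7% and 53.2% for Large White pig and wild boar.

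The limits did not fall into gaps of the data. At the lower limit the nearest region inside held 35.05, 35.14 and 35.05% and the nearest outside 34.92, 34.99 and 34.94% in the 3 comparisons. At the upper limit of the half-methylated range the nearest inside held 64.98, 64.99 and 64.98% and the nearest outside 65.01, 65.004 and 65.02%. For the fully methylated breed the nearest inside held 90.01, 90.01 and 90.00% and the nearest outside 90.00, 90.00 and 89.98%.

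Lower levels of the listed regions had their fullest bins above 50%. Among all short, CG-poor autosomal regions whose higher breed stood at 90% or more (2945, 2962 and 1950 regions), the fullest bin of 5 points was 60 to 65% for Enshi black against Large White pig, with 469 regions. It was 55 to 60% for the other 2 comparisons, with 446 and 287 regions. In the comparison of the domestic breeds 248 regions lay at 45 to 50% and 310 at 50 to 55%. These bins held 284 and 330 for Enshi black pig against wild boar, and 207 and 226 for Large White pig against wild boar. Counts thus rose through the middle in each list. Only regions called as different are counted, and the thresholds of the caller are unknown. How far the calling set the place of the fullest bin was not tested. The half-methylated range held 60.3% (exact 95% interval 58.5 to 62.1%), 60.9% (59.1 to 62.6%) and 65.2% (63.0 to 67.3%) of these regions. All intervals given here are Clopper-Pearson intervals and cover counting error only.

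**Figure D1:**
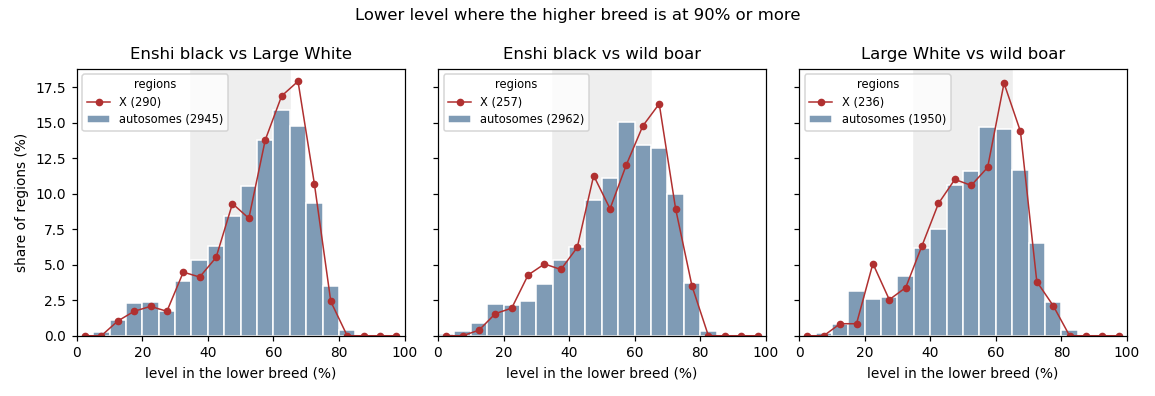
Share of regions (%, y axis) by the level of the lower breed (%, x axis, bins of 5 points) among short, CG-poor regions with a higher level of at least 90%, for autosomes (bars) and X (line with points), 1 panel per comparison, with the 35 to 65% range shaded. The bars rise through 50% and are highest between 55 and 65%, and the X line takes a similar course with its highest point between 60 and 70%.

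The X, of which males carry 1 copy, is outside the limits and was read in the same way. Of 290, 257 and 236 short, CG-poor X regions with a higher level of at least 90%, 168, 149 and 158 were at 35 to 65% in the lower breed. These were 57.9% (52.0 to 63.7%), 58.0% (51.7 to 64.1%) and 66.9% (60.6 to 72.9%), and each interval held the autosomal share of its comparison. Without the first 10 Mb of X, a limit set after the X values were seen, the shares were 59.1%, 56.7% and 66.7%. The half-methylated level on X had a median of 56.0%, 53.7% and 53.2% within the same limits. On Y, 1 of 1, 3 of 4 and 1 of 4 such regions fell in the range.

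The breed that was half-methylated was not set by the limits. Enshi black pig was the half-methylated breed in 1041 of 1777 regions against Large White pig (58.6%, 56.3 to 60.9%) and in 1108 of 1803 against wild boar (61.5%, 59.2 to 63.7%). Large White pig was half-methylated in 674 of 1271 regions against wild boar (53.0%, 50.2 to 55.8%). Enshi black pig held the majority on 18 of 18 autosomes in both of its comparisons, and Large White pig on 11 of 18 against wild boar. The direction per autosome was not read for other regions. Across the other short, CG-poor regions of these chromosomes, the first-named breed was the lower in 54.6%, 54.0% and 50.3%. Across those of the others whose higher breed also stood at 90% or more, it was the lower in 63.8%, 66.1% and 57.9%. The excess of Enshi black pig was thus larger than in other short, CG-poor regions as a whole and smaller than in those with a fully methylated partner. Both Enshi black comparisons rest on the same Enshi black methylome.

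The third breed, which the limits did not use, had a listed level at some of these regions through the other 2 comparisons. A region was taken as shared by lists when their regions overlapped by at least 1 bp. The half-methylated breed was also listed below the third breed in 572 regions (32.2%, 30.0 to 34.4%), 553 (30.7%, 28.5 to 32.9%) and 406 (31.9%, 29.4 to 34.6%). For other short, CG-poor regions the lower breed was listed below the third in 30.4%, 29.3% and 31.6%, and in 33.2%, 32.9% and 34.4% of those with a difference of at least 25 points. The share was thus close to that of other regions. At these regions the third breed stood at a median of 94.96% (wild boar), 94.2% (Large White pig) and 93.7% (Enshi black pig), and at 90% or more in 473, 450 and 308 of them. Its level was read only where it was listed above the half-methylated breed, so a high level follows in part from that listing. The same level was not summarised for other regions.

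The reverse case was less frequent. The fully methylated breed was also listed above the third breed in 156 regions (8.78%, 7.504 to 10.19%), 179 (9.93%, 8.59 to 11.4%) and 184 (14.5%, 12.6 to 16.5%). Among other short, CG-poor regions the higher breed was listed above the third in 12.8%, 14.1% and 15.7%, and in 12.4%, 14.3% and 14.9% of those with a difference of at least 25 points. In both comparisons that include Enshi black pig, the interval of these regions lay below these shares. With levels taken from listed sites, the share was 9.92% (8.11 to 12.0%) for Enshi black pig against Large White pig. For Enshi black pig against wild boar it was 13.3% (11.2 to 15.6%). These shares cover only regions with a listed site, and the other short, CG-poor regions were not read by listed sites. At the 156, 179 and 184 regions the third breed stood at a median of 50.3%, 56.1% and 58.6%, and at 35 to 65% in 118, 123 and 135 of them. These levels were read only where the third breed was listed below the fully methylated breed, so lower levels follow in part from that listing. No level of the third breed was listed at 1052, 1074 and 677 regions, where its level is unknown.

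**Figure D2:**
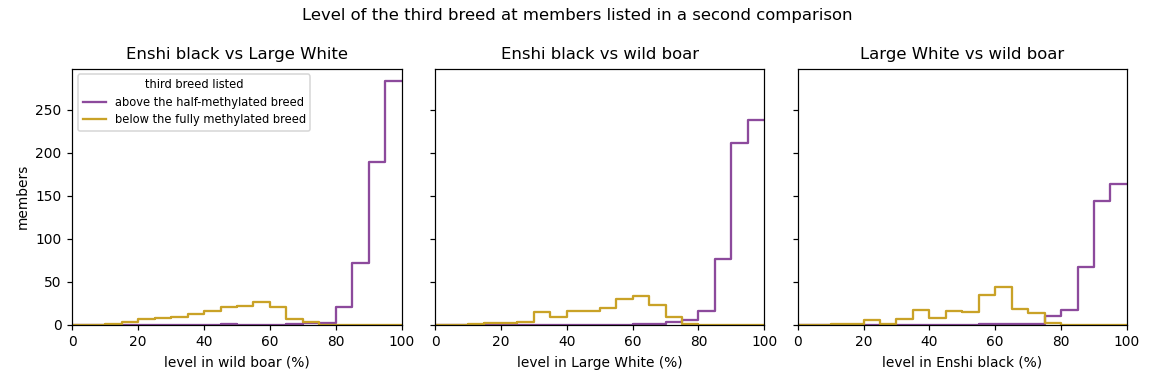
Number of regions (y axis) by the level of the third breed (%, x axis, bins of 5 points), where that breed was listed above the half-methylated breed (purple) or below the fully methylated breed (yellow), 1 panel per comparison. Purple counts crowd above 85% and yellow counts spread around the middle of the scale, with medians of 50.3 to 58.6%.

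At some regions the breeds held 3 distinct levels. In 9 regions the third breed was at 20% or less in its list with the fully methylated breed, and in 3 of these it was also listed below the half-methylated breed. A further region was listed at 20% or less against the half-methylated breed alone, and these 4 are described here. At chr10:27176574-27176788 (10 CG sites, Sscrofa10.2 as all coordinates here), Enshi black pig was at 53.9%, Large White pig at 92.8% and wild boar at 13.2%. At chr2:7302862-7303001 (5 CG sites), wild boar was at 55.2%, Large White pig at 95.9%, and Enshi black pig at 11.5% and 10.9% in its 2 comparisons. At chr15:138330033-138330185 (5 CG sites) Enshi black pig was at 57.7%, wild boar at 96.0%, and Large White pig at 13.0% and 11.8%. At chr4:113403786-113404029 (4 CG sites) wild boar was at 51.7%, Enshi black pig at 90.9%, and Large White pig at 13.3% and 20.7%.

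Overlapping regions were then joined into 4085 distinct loci that covered 849 kb in all. Of these, 3326 lay in 1 list, 759 (18.6%) in 2 lists, against 22.2% of 9415 loci made in the same way from the other short, CG-poor regions, and 0 in all 3, as the limits require a half-methylated and a fully methylated breed in each. In 583 of the 759 loci a single breed was half-methylated and both others were fully methylated. The single breed was Enshi black pig at 296 loci, Large White pig at 150 and wild boar at 137. Enshi black loci outnumbered those of either other breed on 18 of 18 autosomes, from 10 loci on chromosome 15 to 27 on chromosome 1. Such counts per autosome were not made for loci of the other regions. In 176 loci a single breed was fully methylated and both others half-methylated, namely Enshi black pig at 51, Large White pig at 60 and wild boar at 65. Enshi black pig was thus the breed alone at 50.8% of the 583 loci and 29.0% of the 176. Among loci of other short, CG-poor regions in 2 lists, it was the breed alone at 48.1% of 1454 loci with a single lower breed and at 45.8% of 625 with a single higher breed. The share on the half-methylated side was close to that of other regions. Loci of Enshi black pig rest on its 2 lists, which are also the longest.

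**Figure D3:**
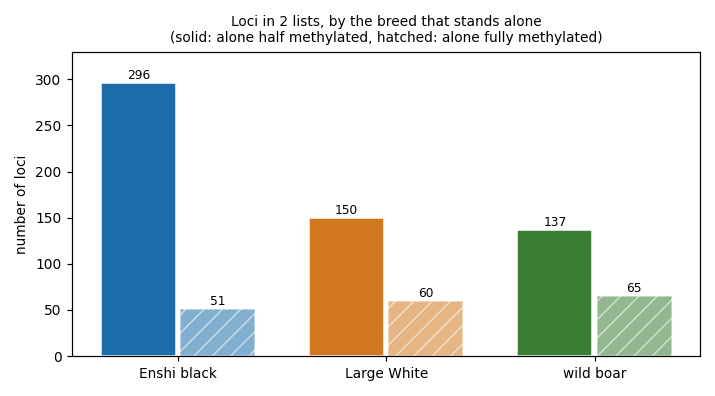
Number of loci in 2 lists (y axis) by the breed that stands alone (x axis), alone half-methylated (solid bars) or alone fully methylated (hatched bars). Enshi black pig has the tallest solid bar, 296, and the shortest hatched bar, 51.

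The limits leave fully methylated partners less room to differ than half-methylated ones, and the gaps are given as a description. The median gap between the fully methylated partners was 1.40, 1.91 and 1.53 points where Enshi black pig, Large White pig or wild boar was alone, and at most 5 points at 90.5%, 92.7% and 94.2% of these loci. Between half-methylated partners the median gap was 7.03, 6.93 and 3.93 points, and at most 5 points at 45.1%, 33.3% and 58.5% of loci. The widest gap between half-methylated partners was 29.4 points, at a locus where Large White pig was alone.

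Loci with more CG sites lay in 2 lists more often. The share was 8.54% of 1112 loci with 4 CG sites, 16.5% of 1760 with 5 to 9, 30.4% of 953 with 10 to 19, and 31.9% of 260 with 20 or more. The share of regions whose half-methylated breed was also listed below the third breed rose in the same way between the domestic breeds, from 14.2% at 4 CG sites to 29.2%, 48.0% and 60.3%. Against wild boar it went from 16.0% to 27.3%, 49.2% and 48.7% for Enshi black pig, and for Large White pig from 15.7% to 27.1%, 46.7% and 66.0%. Shares by number of CG sites were not read for other short, CG-poor regions, so the rise is not shown to be particular to these regions. A locus took the largest CG number among its joined regions, which can raise the class of loci in 2 lists. Whether sites with few neighbours were less often called by the authors was not tested.

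Most of the regions were small. Their median length was 192, 183 and 178 bp, against 178, 177 and 166 bp for other short, CG-poor regions. They held a median of 6 CG sites in each comparison, against 7, and 4.47, 4.39 and 4.82 CG sites per 100 bp, against 5.0, 5.24 and 5.32. The lowest number the lists contain, 4 CG sites, was found in 25.7%, 26.7% and 25.5% of them. At least 20 CG sites were held by 116, 115 and 94 regions (6.53%, 6.38% and 7.40%), against 11.1%, 12.6% and 10.9% of the other regions. The regions were thus slightly longer and slightly poorer in CG than their peers.

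Levels at single CG sites were listed by the authors at 944, 969 and 687 of the regions (53.1%, 53.7% and 54.1%), against 35.95%, 33.3% and 37.1% of other short, CG-poor regions. Listed sites are those called as different, and the limits require a wide gap between breeds. The other regions had a median gap of 31.7, 30.8 and 33.3 points. The contrast thus follows in part from the limits, and others with a like gap were not read. The listed sites made up 26.9%, 26.9% and 26.3% of the CG sites in the regions. In regions with at least 4 listed sites (377, 385 and 290), every listed site of the half-methylated breed lay at 35 to 65% in 307, 327 and 249, or 81.4%, 84.9% and 85.9%. The limits held the region level of this breed to the same range, so these counts follow in part from the selection. A listed site under 20% occurred in 7, 11 and 3 of them and one above 90% in 0, 0 and 1.

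The median range from the lowest to the highest listed site was 1.65, 2.14 and 0.87 points in the half-methylated breed and 0.18, 0.16 and 0.07 points in the fully methylated breed. Deposited site levels often repeat between neighbouring sites, so they are not separate measurements, their range understates the spread of single sites, and empty and full neighbours could also be listed at intermediate levels. Regions without a listed site had a higher half-methylated level, with medians of 59.2%, 58.3% and 58.1%, than those with one, at 49.0%, 49.3% and 48.6%.

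The region with the most CG sites, 78, lay at the start of TAB2 (ENSSSCG00000004110), which encodes an adaptor that couples cytokine receptors to TAK1 kinase. It spanned chr1:18929575-18930380, covering the first exon on the minus strand and the sequence upstream of it. Large White pig was at 43.5% and wild boar at 90.9%. The overlapping region of Enshi black pig against wild boar, chr1:18929622-18930276 with 62 CG sites, gave 61.7% and 95.2%. Wild boar stood alone as fully methylated there. A further listed region set Large White pig at 37.6% below Enshi black pig at 62.9%, so both half-methylated breeds differed from each other too. Over 63 listed sites Large White pig ran from 31.5 to 62.9% and wild boar from 82.6 to 98.8%, and over 32 sites Enshi black pig ran from 52.9 to 63.4%. At each site listed for all 3 breeds, wild boar was highest and Large White pig lowest.

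At chr13:2990950-2991677 (49 CG sites) Enshi black pig stood alone as fully methylated, at 94.8% against Large White pig and 95.4% against wild boar. Large White pig was at 46.6% and wild boar at 49.8%. Their listed sites fell along most of the region, within 24.4 to 61.4% in Large White pig and 29.3 to 57.7% in wild boar. Enshi black pig lay between 87.0 and 99.2% and was also lower towards the same end. Against Large White pig it was listed at 99.2% at 151 bp before the centre and at 88.1% at 199 bp beyond it. At chr4:137697308-137697719 (31 CG sites) Enshi black pig was again alone, at 95.9%, with Large White pig at 57.2% and wild boar at 57.4%. Both half-methylated breeds nearly coincided there, site by site, between 51.7 and 63.8% in Large White pig and between 50.2 and 62.7% in wild boar. Of all 759 loci in 2 lists, Enshi black pig was alone fully methylated at 51 and alone half-methylated at 296. It stood alone at the top of 3 more of the largest recurring loci. It was at 91.0% at chr6:43133492-43133963 (42 CG sites), with Large White pig at 64.6% and wild boar at 54.0%. At chr3:17180839-17181256 (34 CG sites) it was at 90.4%, with wild boar at 52.1% and Large White pig at 63.4%. At chr16:29277526-29278188 (31 CG sites) it was at 93.3%, with wild boar at 63.8% and Large White pig at 55.9%.

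Wild boar stood alone as half-methylated at 3 of the largest loci in 2 lists. At chr4:1162734-1163166 (39 CG sites) it was at 52.3% against Enshi black pig at 93.2% and at 52.0% against Large White pig at 92.9%. Over 35 listed sites it ran from 45.5 to 56.6%, while both domestic breeds stayed between 91.5 and 93.7%. Wild boar thus stayed near the middle of the scale along the stretch. At chr6:102975402-102975867 (43 CG sites) wild boar was at 63.7%, Large White pig at 92.7% and Enshi black pig at 90.7%. At chr6:1394192-1394628 (34 CG sites) wild boar was at 53.9%, Enshi black pig at 97.6% and Large White pig at 96.0%.

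**Figure D4:**
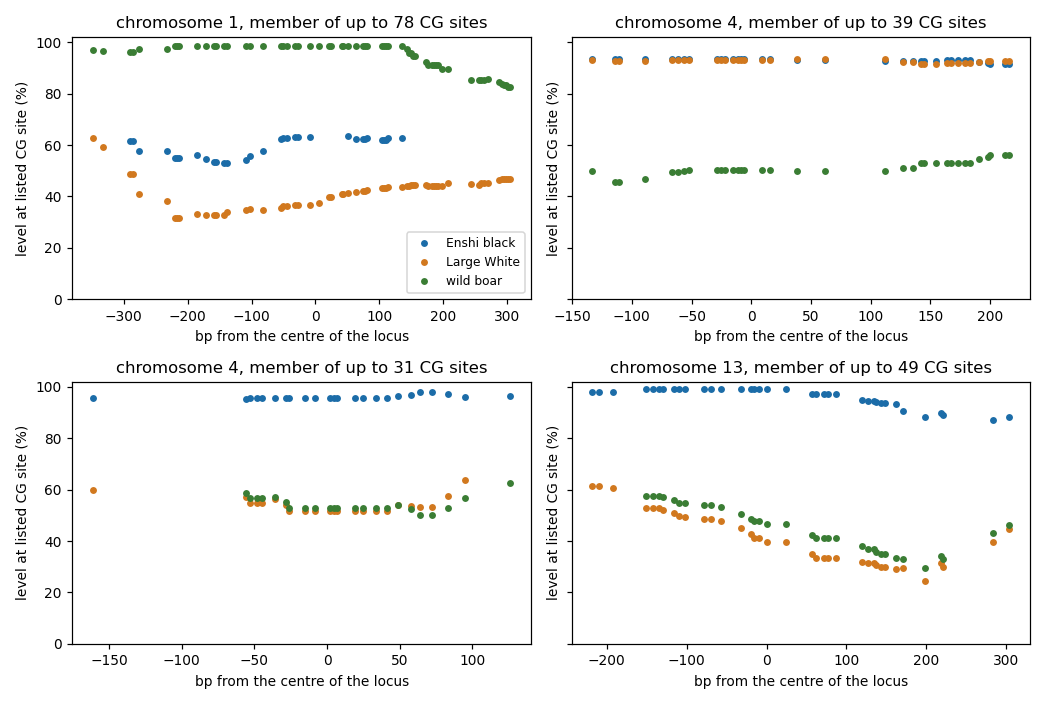
Level at each listed CG site (%, y axis) by distance from the centre of the locus (bp, x axis) at 4 of the largest loci found in 2 lists, coloured by breed. On chromosome 1 wild boar lies above both domestic breeds. On chromosome 4 wild boar (39 CG sites) or both other breeds (31 CG sites) run near the middle of the scale. On chromosome 13 both lower breeds fall along most of the region, and Enshi black pig falls less.

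Large White pig stood alone as fully methylated at the joined locus chr16:29346638-29347219. It was at 92.3% against Enshi black pig at 63.4% in the region chr16:29346638-29347176 (40 CG sites). In the overlapping region chr16:29346648-29347219 (40 CG sites) it was at 90.0% against wild boar at 64.8%. Large White pig was the higher breed at all 13 sites listed against Enshi black pig and at 16 of 18 listed against wild boar, where it ran from 93.4 to 97.4% and wild boar from 53.9 to 57.6%. The last 2 of the 18 sites had the opposite order, with Large White pig at 14.2% and wild boar at 95.2%.

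Other regions with many CG sites met the limits in 1 list. Between the domestic breeds, Large White pig was at 53.7% and Enshi black pig at 90.6% at chr6:4258998-4259963 (61 CG sites). Wild boar was listed there at 83.8% against Large White pig and at 46.9% against Enshi black pig, in regions with other ends, so its level over the whole stretch is not settled by these lists. At chr7:122038107-122038636 (44 CG sites) Enshi black pig was at 59.5%, Large White pig at 93.7% and wild boar at 97.2%. At chr8:64102910-64103851 (41 CG sites) Large White pig was at 36.3%, Enshi black pig at 92.9% and wild boar at 23.5%. The wild boar level comes from a region listed against Enshi black pig, so the lower levels were not compared directly.

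Among regions of Enshi black pig and wild boar, wild boar was at 41.4% and Enshi black pig at 95.8% at chr3:61149561-61150101 (52 CG sites). Large White pig was listed there at 94.0% and at 34.2% in regions with other ends. Enshi black pig was at 57.9% and wild boar at 90.6% at chr7:24964121-24964754 (53 CG sites). Large White pig was at 71.0% in a region listed against wild boar, so the lower levels were not compared directly. At chr4:128939635-128940104 (44 CG sites) Enshi black pig was at 63.4%, wild boar at 90.1% and Large White pig at 86.5%. Among regions of Large White pig and wild boar, chr9:40050585-40051119 (35 CG sites) had wild boar at 55.5%, Large White pig at 90.3% and Enshi black pig, the third breed, at 79.1%. The third breed was thus nearer the fully methylated breed at these last 2 regions without reaching 90%.

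Regions were spread over all autosomes. The median density was 0.75, 0.82 and 0.54 regions per Mb of the last listed position, and counts per chromosome followed that position with Pearson r of 0.90, 0.92 and 0.82 over 18 autosomes, a description without a test. Chromosome 18 had 1.18, 1.29 and 0.85 per Mb and chromosome 10 had 1.21, 0.90 and 0.83. The lowest densities were 0.48 and 0.30 on chromosome 13 in the comparisons with Large White pig, and 0.53 on chromosome 1 for Enshi black pig and wild boar. These densities do not account for how many regions were listed on a chromosome. As a share of its short, CG-poor regions, chromosome 13 had 37.5%, 36.6% and 25.98%, the first being the highest of all autosomes. Chromosome 18 had shares of 34.4%, 33.6% and 37.4%. Chromosome 12, with 0.99, 0.98 and 0.73 regions per Mb, had shares of only 24.5%, 21.2% and 23.5%. The median distance to the next region of the same kind and list was 361, 406 and 476 kb, and 98, 83 and 64 regions (5.51%, 4.60% and 5.04%) had one within 10 kb. For the more numerous other short, CG-poor regions the distance was 126, 128 and 170.0 kb, with 13.7%, 13.6% and 12.0% within 10 kb.

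**Figure D5:**
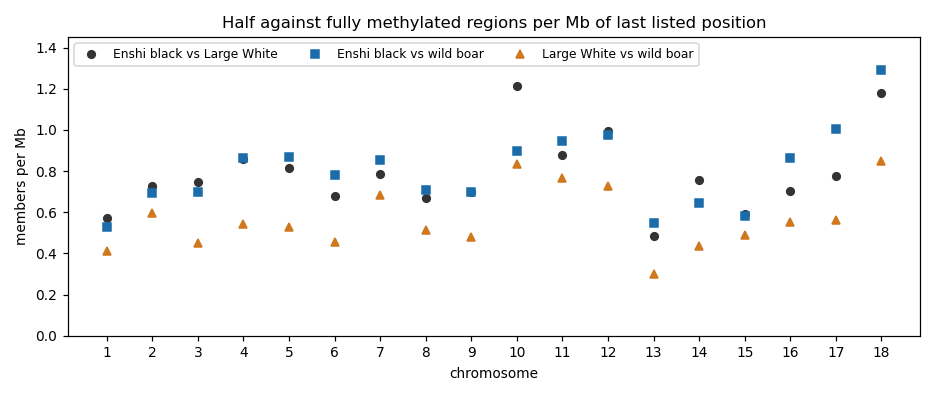
Number of half-methylated against fully methylated regions per Mb of the last listed position (y axis) on each autosome (x axis), for the 3 comparisons. Chromosome 18 stands high in all 3 comparisons and chromosomes 1 and 13 lowest, and Large White pig against wild boar lies below the other comparisons on each chromosome.

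A further listed region of any kind within 2 kb was found at 108, 90 and 85 regions (6.08%, 4.99% and 6.69%), against 10.7%, 9.95% and 11.2% of other short, CG-poor regions. All such neighbours went in the same direction at 85, 71 and 72, and at least 1 neighbour was reversed at 23, 19 and 13. Windows of 1 Mb held a median of 2 regions among 1844 windows with any, counted over all lists. The most, 13, were in chromosome 11 at 49 to 50 Mb (9 loci), chromosome 2 at 4 to 5 Mb (13 loci) and chromosome 7 at 11 to 12 Mb (10 loci). Listed regions of any kind numbered 20, 33 and 24 in these windows. Over chromosomes 1 to 18, 23.6% of listed regions met the limits, so a full window can also reflect many listed regions. In these windows each of the 3 breeds was the half-methylated one in 3 to 5 regions, but not in the next fullest, of 11 regions. On chromosome 10 at 14 to 15 Mb Enshi black pig was half-methylated in 9 of the 11, and on chromosome 18 at 11 to 12 Mb in 6 and Large White pig in 0. On chromosome 11 at 4 to 5 Mb it was so in 3, Large White pig in 2 and wild boar in 6. Listed regions of any kind numbered 34 (chromosome 10), 24 (chromosome 18) and 35 (chromosome 11) in these windows of 11.

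Gene positions could be read for 2023 loci of chromosome 1, of which 53 have a symbol. Of 180, 167 and 130 regions on that chromosome, 8, 10 and 3 lay in such a locus (4.44%, 5.99% and 2.31%), against 4.40%, 3.73% and 2.92% of other short, CG-poor regions, and 3, 4 and 3 lay within 2 kb upstream of one (1.67%, 2.40% and 2.31%, against 2.31%, 2.99% and 1.46%). Beside TAB2, 3 genes with a symbol held such a region, each in an intron. PPP1R14C (ENSSSCG00000004094), which encodes an inhibitor of protein phosphatase 1, had Large White pig at 60.8% and Enshi black pig at 97.6% at chr1:18073214-18073467 (5 CG sites). ATP9B (ENSSSCG00000004857), of the flippase family of membrane ATPases, had Enshi black pig at 44.4% and wild boar at 98.6% at chr1:161672758-161672870 (4 CG sites).

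CDIN1 (ENSSSCG00000026900), a gene linked to a congenital anaemia of red cell precursors, held 2 sites of the pattern in opposite directions. At chr1:150216189-150216293 (4 CG sites) wild boar was at 48.8%, below Enshi black pig at 98.7% and Large White pig at 99.2%. At chr1:150257677-150257762 (4 CG sites) Enshi black pig was at 64.0% and wild boar at 94.8%. Within 1 gene the half-methylated breed thus changed between introns or parts of one. Of the loci without a symbol, one held an intronic region of 15 CG sites at chr1:165455460-165455666, with Enshi black pig at 53.9% against Large White pig at 95.9% and wild boar at 96.1%. The 37 imprinted genes and 30 liver genes chosen for lookup had no model among these loci and were not analysed here.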

How the data were processed

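For each pair of breeds the authors deposited 1 list of CG sites and 1 list of regions called as differentially methylated, each with a level per breed as a fraction. Bismark 0.15.0 and the build Sscrofa10.2 are named in the submitters' processing notes. The sources used here do not name the caller of the differences or its thresholds. Levels were multiplied to percent. No read counts were used, and the depth of each level is unknown. Columns holding the authors' comparison (difference, standard error, statistic, dispersion, p-value, false discovery rate, posterior probability, area statistic) were not used.

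The columns of levels are numbered, and their breeds were read from the order of breed codes in each table's name. The labels attach the Enshi black against wild boar table to the Large White sample and the Large White against wild boar table to the wild boar sample. At sites in these regions listed in 2 tables, levels of the breed so named differed by a median of 0.0267 points (Enshi black, 1282 sites), 0.0227 points (Large White, 744) and 0.0159 points (wild boar, 740), and those of the other columns by 2.46, 2.78 and 3.61 points.

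Counts and medians were made with pandas 2.3.3 and numpy 2.4.6, exact intervals with scipy 1.17.1 and plots with matplotlib 3.10.9, under Python 3.11.15. Scripts were tested on simulated data. The members and gene lists were chosen with earlier results of these data known. Named regions were the 5 with the most CG sites per comparison, the 10 loci in 2 lists with the most CG sites, and the 3 fullest windows of 1 Mb. The next 3 windows were added later. Named genes were those with a symbol at a region. The 4 regions with 3 distinct levels and the loci without a symbol were added after their values were seen. Gene models were the parts of the study's isoform tables used here. No genome of this build was used, and no sequence is shown. The limits on level, length, CG number, spacing and overlap and the source of the levels were varied.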

Additional observations from a re-analysis of the deposited data

Results flagged for a closer look

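Regions of the same kind also lay on unplaced scaffolds of Sscrofa10.2, which the comparisons above leave out. There were 220 between Enshi black and Large White pigs, 205 for Enshi black pig against wild boar, and 173 for Large White pig against wild boar. They are given because they lie outside the data compared above. They made up 59.6% of 369 short, CG-poor scaffold regions with a higher level of at least 90% (54.4 to 64.7%), 59.1% of 347 (53.7 to 64.3%) and 58.4% of 296 (52.6 to 64.1%). Their median half-methylated level was 52.1%, 52.5% and 53.2%.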

How the results depend on the processing

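Of 111 values under alternative settings for 18 results, 76 stayed within 1.5 times the main count or inside the main interval, and 35 moved. A turn of direction was defined only for the shares with the first-named breed half-methylated, and 0 of these turned. With a full level of at least 95% the regions numbered 965, 1015 and 757, and with the mean of the listed sites as the level 968, 963 and 698. Of these 867, 886 and 641 also met the limits by region level, and the rest by their sites alone. By region level 833, 834 and 584 regions had no listed site, and 77, 83 and 46 left the limits by their sites. With a half-methylated range of 40 to 60% they numbered 1151 between the domestic breeds.

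The half-methylated share of autosomal regions with a fully methylated breed was 39.1%, 42.1% and 44.4% with the range of 40 to 60%, and 36.9%, 38.5% and 42.8% on X. It was 55.4%, 55.9% and 60.7% on autosomes at 95%, with 58.6% on X for Large White pig and wild boar. It was 64.3%, 64.2% and 69.7% for autosomal regions of at least 100 bp, and 59.0% for Enshi black pig and wild boar with at least 5 CG sites.

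The share with the half-methylated breed below the third was 38.4%, 36.01% and 37.5% with at least 5 CG sites, 26.9%, 28.2% and 29.3% at 95%, and 39.2%, 35.1% and 37.7% by listed sites. The share with the fully methylated breed above the third was 13.3% and 17.3% by listed sites in the comparisons with wild boar (Enshi black and Large White). The first of these came close to the 14.1% of other short, CG-poor regions, which were not read by listed sites. The first-named breed was half-methylated in 64.2% (Enshi black pig and wild boar) and 55.9% (Large White pig and wild boar) at 95%, and in 57.0% of the latter by listed sites. Except where stated, the cause was not tested.

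No paired analysis was possible because no result comes from a test and a breed is 1 methylome. Leaving out a replicate was not possible either. Leaving out the first 10 Mb of X was chosen after seeing the data. The unknown read depth limits each level, and differences between animals of a breed cannot be told apart from differences between breeds.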
